A study of Mus musculus with 4 samples.

Results

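The sensors, stress transcription factors and early target genes of the unfolded protein response (UPR) were read out of a map of NFIC binding in the mouse pancreas. The set held 10 genes, chosen by name with earlier results of these data known. They were the sensors *Ern1*, *Atf6* and *Eif2ak3*, the transcription factors *Xbp1*, *Atf4*, *Ddit3* and *Atf3*, and the target and feedback genes *Trib3*, *Chac1* and *Ppp1r15a*. A peak was counted for a gene when the authors' annotation named that gene at the nearest transcription start site (TSS). By this rule 8 of the 10 genes were named, for 16 of the 15824 peaks in the list, which names 9086 genes in all. *Trib3* and *Ppp1r15a* had no assigned peak.

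NFIC is a transcription factor of the nuclear factor I (NFI) family, which binds DNA as a dimer at a palindromic site. Its binding was assessed by ChIP-Seq with an antibody against NFIC (Bethyl, A303-123A) in 3 libraries of pancreas from mice aged 8 to 12 weeks and of a strain given as mixed, beside 1 library of input DNA from the same tissue without antibody. The mice were wild type by the study's account of this ChIP-Seq, which gives a narrower age range than the deposited description used here. The labels give no treatment or number of animals for a library, and the whole organ was used, so acinar, ductal, endocrine and stromal nuclei contribute to the same peaks. What the authors deposited for them is 1 list of merged peaks, in mm10 coordinates, with 0 columns of values per library. There is therefore no replicate error and no depth for any value below, and no test of a difference was made.

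The UPR is the response of a cell to misfolded protein in the endoplasmic reticulum (ER), and pancreatic acinar cells, which secrete large amounts of digestive enzymes, depend on it. It has 3 arms. IRE1, encoded by *Ern1*, splices the mRNA of *Xbp1* so that an active transcription factor is made, ATF6 is cut in the Golgi to release its own transcription factor domain, and PERK, encoded by *Eif2ak3*, phosphorylates eIF2α, which lowers general translation but raises that of *Atf4*. ATF4 in turn activates *Atf3*, *Ddit3* (encoding CHOP), *Trib3* and *Chac1*, and *Ppp1r15a* (encoding GADD34) closes the loop by directing a phosphatase to eIF2α.

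The members split by where their peaks lay. *Atf3*, *Atf4*, *Ddit3* and *Chac1*, all of the PERK arm, had a peak in the proximal promoter, here from -1000 bp to the TSS, whereas *Ern1*, *Xbp1*, *Atf6* and *Eif2ak3* had peaks only outside this window. The PERK arm holds 7 of the members, the IRE1-XBP1 arm 2 and the ATF6 arm 1. *Ern1* had a peak 510 bp past the TSS, which this window leaves out. The sequences of the 4 promoter peaks are shown because they hold the letters that can be set against the peaks, on the strand of the gene and 5′ to 3′. They were read from the RefSeq copy of GRCm38, the assembly of mm10, at chr1:191183558-191183730 (*Atf3*, minus strand), chr10:127290379-127290551 (*Ddit3*, plus strand), chr2:119350904-119351076 (*Chac1*, plus strand) and chr15:80255031-80255183 (*Atf4*, plus strand). The *Atf4* peak reaches into the first exon and is shown up to the TSS, as 153 of its 173 bases. Capitals mark the NFI full site (TGGCNNNNNGCCA, in which 1 of the 8 fixed bases may differ), the NFI single site (TTGGCA, one arm of the palindrome) and the C/EBP-ATF response element (CARE, TGATGNAA), each on either strand, and in *Atf4*, where none of these is present, the CCAAT box.
Atf3 promoter peak: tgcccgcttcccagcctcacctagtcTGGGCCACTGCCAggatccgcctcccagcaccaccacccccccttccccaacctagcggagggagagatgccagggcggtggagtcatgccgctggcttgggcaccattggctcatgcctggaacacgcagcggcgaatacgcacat
Ddit3 promoter peak: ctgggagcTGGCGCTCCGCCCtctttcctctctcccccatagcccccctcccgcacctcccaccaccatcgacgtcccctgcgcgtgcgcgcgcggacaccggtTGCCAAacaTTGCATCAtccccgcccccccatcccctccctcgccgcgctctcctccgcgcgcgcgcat
Chac1 promoter peak: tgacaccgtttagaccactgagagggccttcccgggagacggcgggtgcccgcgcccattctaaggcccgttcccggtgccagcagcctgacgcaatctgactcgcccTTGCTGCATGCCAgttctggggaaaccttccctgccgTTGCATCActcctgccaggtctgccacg
Atf4 promoter peak: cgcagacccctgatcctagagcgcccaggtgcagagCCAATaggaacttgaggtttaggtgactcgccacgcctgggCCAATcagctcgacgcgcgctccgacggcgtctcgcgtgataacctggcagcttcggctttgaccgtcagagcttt

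A second set of sequences is shown for the distal peaks that stand out by score or by site. These are the highest distal peak of the set, at chr2:119382784-119382956, which is named for *Chac1* but lies in a coding exon of *Ino80*, 2 of the 3 peaks upstream of *Xbp1*, at chr11:5485827-5485999 and chr11:5499500-5499672, and the peak just past *Atf4*, at chr15:80257656-80257828, with the one exact NFI full site of the set. All are on the plus strand, which is that of the gene named, and capitals mark the same NFI sites and CARE.
Chac1 peak in Ino80: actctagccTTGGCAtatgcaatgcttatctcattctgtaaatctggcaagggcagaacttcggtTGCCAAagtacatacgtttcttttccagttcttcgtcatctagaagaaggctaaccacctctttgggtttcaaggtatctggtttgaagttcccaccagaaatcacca
Xbp1 upstream peak, farthest: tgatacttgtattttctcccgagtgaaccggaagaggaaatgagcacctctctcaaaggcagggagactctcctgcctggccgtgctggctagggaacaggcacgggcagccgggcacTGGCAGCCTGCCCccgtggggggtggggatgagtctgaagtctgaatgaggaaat
Xbp1 upstream peak, nearest: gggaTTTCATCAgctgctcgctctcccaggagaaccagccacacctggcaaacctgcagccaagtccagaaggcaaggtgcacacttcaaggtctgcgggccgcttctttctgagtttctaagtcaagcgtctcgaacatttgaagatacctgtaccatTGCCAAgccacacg
Atf4 downstream peak: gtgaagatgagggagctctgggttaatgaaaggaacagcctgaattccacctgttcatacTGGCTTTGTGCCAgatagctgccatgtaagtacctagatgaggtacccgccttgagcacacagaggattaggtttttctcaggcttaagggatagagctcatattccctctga

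The peak score, which the authors gave to each merged peak on a scale that is not named in the sources used here, was used to rank peaks within the list. Over all peaks the median score was 6.57, the quartiles were 4.98 and 9.16, and the range was 3.39 to 68.1. The 16 member peaks had a median score of 7.87 and ranged from 3.59 to 25.5. By quartile of score from the highest to the lowest, 5, 5, 2 and 4 of them fell in the 4 quartiles. At or above the median of the list lay 10 of the 16, beside 51.6% of all peaks. The member peaks were thus spread over the range of scores, and the highest belonged to *Atf3* and *Chac1*.

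**Figure D1:**
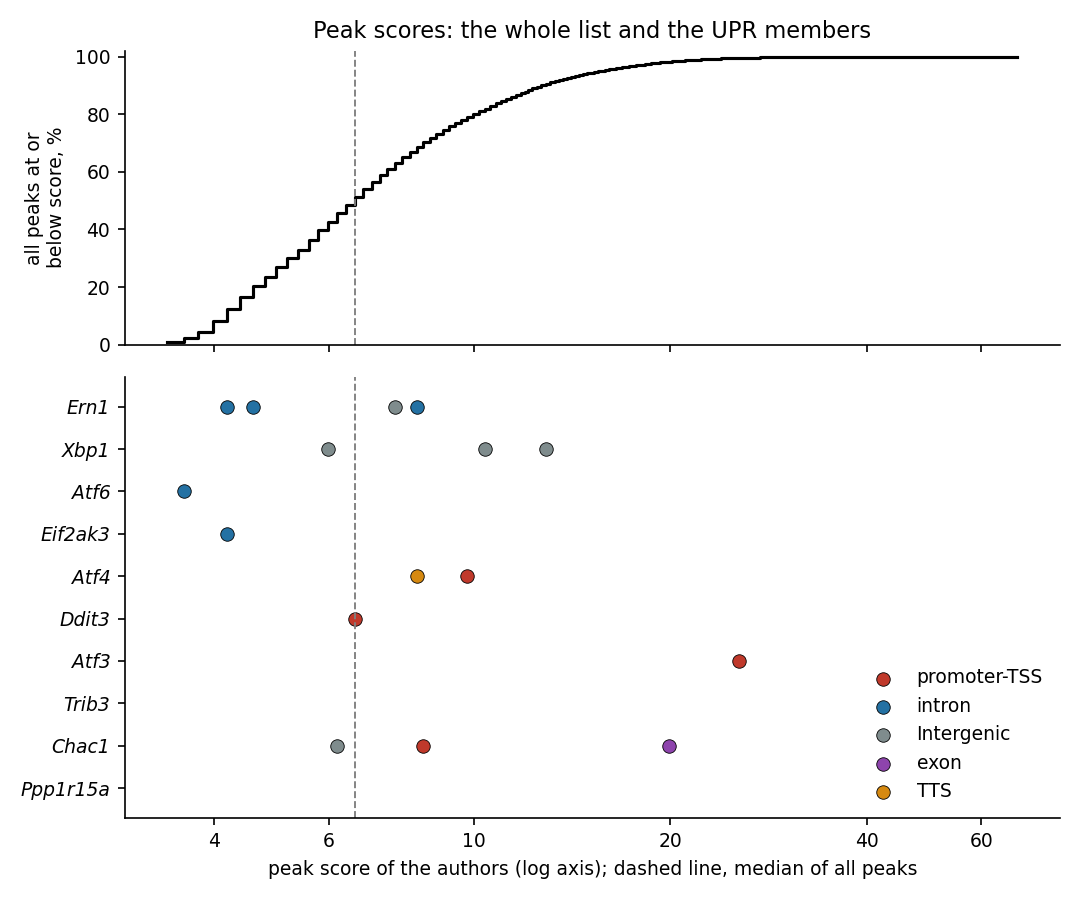
Upper panel, percent of the 15824 peaks at or below each peak score. Lower panel, the score of each of the 16 member peaks by gene, coloured by the authors' class of genomic element. The score axis is logarithmic and the dashed line is the median of all peaks, 6.57. The *Atf3* promoter peak (25.5) and the *Chac1*-named peak in an exon (19.9) lie in the upper tail, the peaks of *Atf6* and *Eif2ak3* lie below the median, and *Trib3* and *Ppp1r15a* have no point.

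Of the 10 members 8 had a peak, and of all 21000 protein-coding genes with a curated RefSeq transcript 37.2% did. A promoter peak was present for 4 of the 10, beside 10.7% of all protein-coding genes. Because the members were chosen with earlier results of these data known, these shares are given as a description. Longer genes were named more often in the list as a whole. Of all protein-coding genes spanning under 10 kb 23.3% had a peak, of those from 10 to 100 kb 42.6%, and of those over 100 kb 54.1%. The members with a peak were 4 of 6 in the shortest class, 3 of 3 in the middle class and 1 of 1, *Atf6*, in the longest. The short members with a peak were *Atf4*, *Chac1*, *Ddit3* and *Xbp1*, with spans of 2.36 to 5.5 kb. The background holds genes that are silent in the pancreas, and expression was not analysed here.

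The IRE1-XBP1 arm held 7 peaks and no promoter peak. *Ern1*, the kinase and endoribonuclease that senses misfolded protein, spans 90.2 kb and had 4 peaks, a number that 8.4% of all named genes and 6.4% of the 4794 named genes of 10 to 100 kb reached. Its highest score was 8.17, for a peak 510 bp past the TSS, in a CpG island within intron 1 of 21 (chr11:106487200-106487372). This window was rich in G and C (67.5%) and held neither an NFI full site nor a single site. A peak at -3827 bp, in the intergenic region upstream, scored 7.57 and held an overlapping NFI full and single site. The other *Ern1* peaks lay deep in the gene, at 25500 bp in intron 1 with a score of 4.58 and at 50010 bp in intron 2 with a score of 4.18. Both are in the lowest quartile, and the latter lies on a B3 SINE repeat. The peaks near the TSS of *Ern1* therefore ranked above those deep in its body.

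*Xbp1* encodes the transcription factor that expands the ER and the secretory apparatus, and is itself required by acinar cells. It spans 5.35 kb and had 3 peaks, a number that 10.9% of the 1712 named genes under 10 kb reached or passed. None was within 10 kb of the TSS. The farthest, at -34728 bp, scored 12.9, rank 1500 in the list, and held an NFI full site 38 bp from the peak centre. The middle one, at -27798 bp, scored 5.98 and held a full site 17 bp from its centre, with a single site beside it. The nearest, at -21055 bp, scored 10.4 and held a single site and a CARE, 147 bases apart. The 3 centres spanned 13673 bp, and by RefSeq all lie within the long non-coding RNA gene *Gm11963*, the farthest overlapping one of its exons, so that the name *Xbp1* is given by nearness of the TSS in the authors' annotation and not by overlap with the gene.

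*Atf6*, the sensor that is itself a transcription factor, had a single peak and the lowest score of the set. It lay 105892 bp past the TSS in intron 14 of 15, with a score of 3.59 and rank 15434 of the list, on an L1M2 LINE repeat (chr1:170761793-170761965). The window contained 34% G and C and 1 NFI single site. Of all named genes 99.4% had a best score at least as high. *Eif2ak3*, the sensor of the PERK arm, also had a single intronic peak, 10252 bp past the TSS, with a score of 4.18, a single site and no full site, on a B1F2 SINE repeat (chr6:70854681-70854853). Of all named genes 93.2% had a best score at least as high. By role, the 3 sensors had 6 peaks with a median score of 4.38 and a range of 3.59 to 8.17, and the 4 transcription factors had 7 peaks with a median of 9.76 and a range of 5.98 to 25.5. Of the sensor peaks 4 belong to *Ern1* alone. The sensors span 60.8 to 164 kb and the transcription factors 2.36 to 13 kb, and role was not tested apart from span. Unlike the split by arm, the split by role was not planned. It counts *Atf6*, which has the lowest score, as a sensor although ATF6 is also a transcription factor. All 3 member peaks on repeats were sensor peaks in the lowest quartile. Repeats held 10.5% of all peaks, from 8.08% in the highest quartile of score to 13.3% in the lowest. How far reads could be placed uniquely in these repeats was not tested, and without peaks on repeats *Atf6* and *Eif2ak3* would have none.

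**Figure D2:**
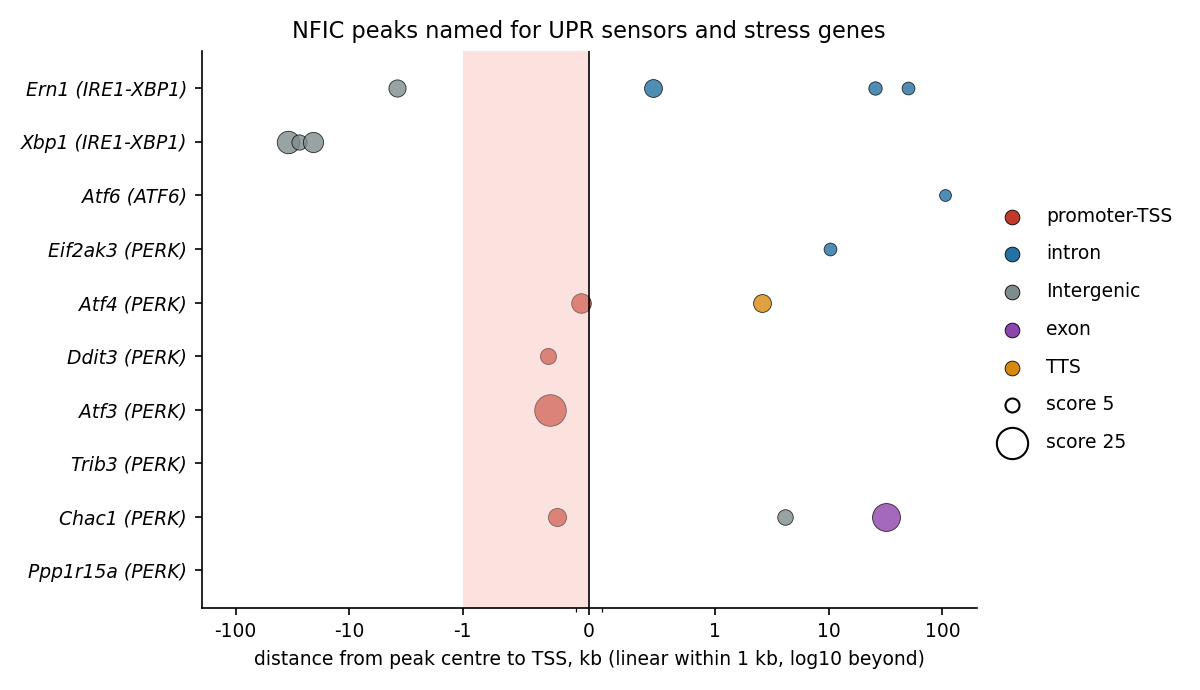
Distance from the centre of each of the 16 member peaks to the TSS of the gene named, in kb (linear within 1 kb of the TSS, log10 beyond). The area of a point is proportional to the peak score, its colour is the authors' class, and the shaded band is the promoter window from -1000 bp to the TSS. The 4 points in the band are *Atf4*, *Ddit3*, *Atf3* and *Chac1*, and the *Xbp1* points lie together from -34728 to -21055 bp.

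The PERK arm had 8 peaks, with a median score of 8.27, for 5 of its 7 genes. *Atf3*, a transcription factor induced by many kinds of stress, had the highest peak of the set, with a score of 25.5 and rank 80 of the list. Its centre lay at -311 bp, and it was the only peak named for the gene. At least this score was reached by 17 of the 2433 peaks in the promoter window of any gene (0.699%), and a best score at least this high was found for 0.902% of all named genes. The sequence above holds 1 NFI full site, from -371 to -359 bp, and a second full site from -223 to -211 bp begins just past the end of the peak. A CARE lies nearer to the TSS, from -110 to -103 bp, outside the peak. In the GENCODE annotation another *Atf3* transcript starts at -34.7 kb, and no peak of the list lies closer than 34395 bp to that start. The next peak beyond the gene, named for *Fam71a*, lies 1974 bp past the 3′ end of *Atf3* with a score of 6.37.

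*Atf4* encodes the transcription factor whose translation rises when eIF2α is phosphorylated, and it spans 2.36 kb. Its promoter peak scored 9.76 at -67 bp and was the closest of the set to a TSS. No NFI full or single site was found in its window, which held CCAAT boxes from -117 to -113 bp and from -76 to -72 bp. The focus ratio, the fraction of a peak's tags that lie on the side of the centre proper to their strand, was 0.554 for this peak, and 2.52% of all peaks had a ratio this low or lower. The second *Atf4* peak, at 2558 bp, lies 197 bp past the end of the gene, in the class for transcription termination sites, and scored 8.17. It holds the only exact NFI full site of the set, 20 bp from the peak centre, and 13.4% of all peaks hold an exact site. The gene is thus flanked on both sides by peaks. The promoter peak holds neither the full site nor TTGGCA, and the downstream peak holds the full site without a mismatch. Each CCAAT box of the promoter peak follows a G, which gives GCCAA, a part of the single site read on the other strand. The *Atf3* promoter peak holds the same letters around its CCAAT box. How many of all peaks hold GCCAA was not counted, so these letters are not counted as an NFI site.

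*Ddit3* encodes CHOP, the factor associated with the death of cells under prolonged ER stress. Its single peak scored 6.57, at the median of the list, and was centred at -328 bp in a window of 71% G and C, the highest of the set. The window held an NFI full site from -406 to -394 bp, which overlaps a GC box (GGGCGG), a single site from -310 to -305 bp and a CARE from -301 to -294 bp, with 3 bases between the single site and the CARE. The full site lies near the upstream edge of the peak, at -72 bp from the centre, and the single site and CARE lie 20 and 30 bp downstream of the centre. *Mbd6* is transcribed from the other strand, and the peak centre lies at -1447 and -1584 bp from its curated starts, so that the peak is upstream of both genes.

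*Chac1*, which encodes an enzyme that degrades glutathione and is a target of ATF4, spans 3.08 kb. It had 3 peaks, the same number as *Xbp1*, and none was centred within its span. The promoter peak, at -252 bp, scored 8.37. It held an NFI full site from -230 to -218 bp and a CARE from -193 to -186 bp, 24 bases apart. A peak at 4137 bp, which is 1053 bp past the end of the gene, scored 6.17 and held both a full and a single site. The highest score, 19.9 at rank 276, belonged to a peak 31628 bp past the TSS, in exon 31 of 36 of *Ino80*, which encodes a chromatin remodelling ATPase. It held a pair of NFI single sites in opposite directions and no full site. A best score at least as high was found for 3.07% of all named genes, but this value rests on a peak in the body of another gene. Without it, the best *Chac1* score was that of the promoter, 8.37.

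**Figure D3:**
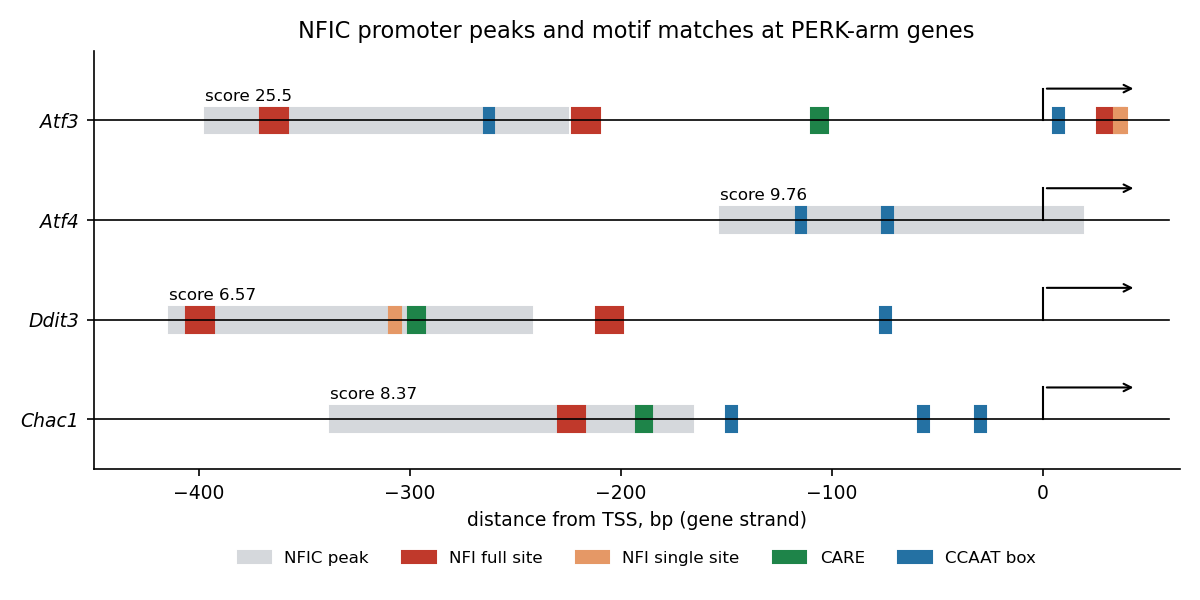
Promoter peaks of *Atf3*, *Atf4*, *Ddit3* and *Chac1* by distance from the TSS in bp on the strand of the gene (arrow, direction of transcription). Grey bars are the 173-bp peaks with their scores, and coloured blocks are matches to the NFI full site, NFI single site, CARE and CCAAT box, which were searched in the 200-bp window of the peak and from 250 bp before to 50 bp after the TSS. NFI full sites lie inside the peaks of *Atf3*, *Ddit3* and *Chac1* and CAREs inside those of *Ddit3* and *Chac1*, whereas the *Atf4* peak holds CCAAT boxes only.

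*Trib3*, a pseudokinase that feeds back on ATF4, and *Ppp1r15a* had no peak by the rule, but their surroundings differed. *Trib3* (chr2:152337425-152344060, minus strand) lay between peaks that are named for its neighbours. One, named for *Gm14164*, lay at -5977 bp from the *Trib3* TSS with a score of 6.77 and 2 NFI full sites. The other, named for *Rbck1*, lay 340 bp past the 3′ end of *Trib3* with a score of 6.17 and 1 full site, and its class is the termination site of the *Trib3* transcript itself. *Ppp1r15a* (chr7:45522917-45526268, minus strand) had no peak within 10 kb of its span. The peak nearest to its TSS lay 18488 bp past the TSS, scored 8.96 and is named for *Nucb1*. When a gene was counted if its span with 10 kb on either side held any peak, *Trib3* was gained and *Xbp1* lost, so that the count of members stayed at 8. No member span held a peak named for another gene.

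**Figure D4:**
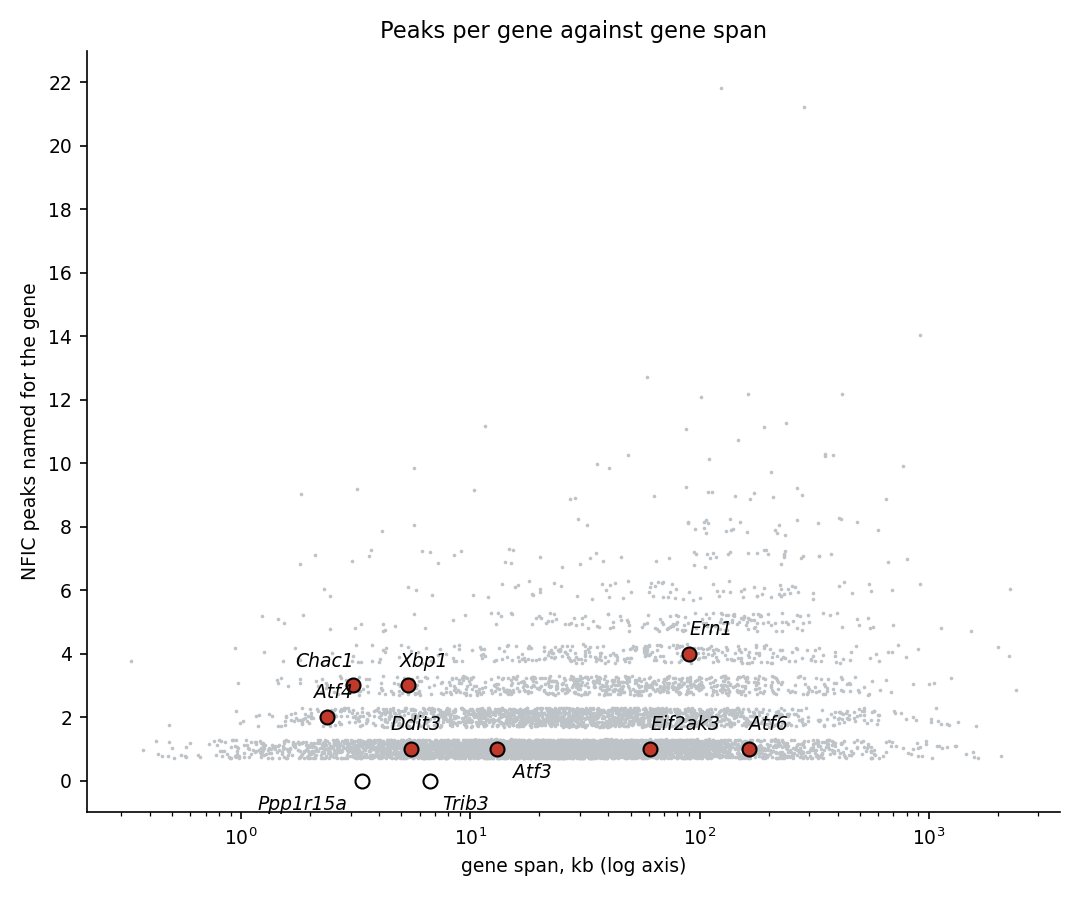
Number of NFIC peaks named for a gene against the span of the gene in kb (log axis). Grey points are all protein-coding genes with at least 1 peak, spread vertically around whole numbers for legibility, and red points are the members, with *Trib3* and *Ppp1r15a* as open points at 0. *Ern1*, which spans 90.2 kb, has 4 peaks, and *Chac1* and *Xbp1*, which span 3.08 and 5.35 kb, have 3 each. Of the *Ern1* peaks 3 are centred within the gene span, and of the *Chac1* and *Xbp1* peaks none is.

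By class, 4 of the 16 member peaks were in the promoter-TSS class (25%), beside 20.7% of all peaks. A further 5 were intronic and 5 intergenic, classes that held 40.8% and 30.6% of all peaks, and 1 each fell in the termination site class and in an exon. More than 10 kb from the TSS lay 8 of the 16, beside 50.9% of all peaks. With 16 peaks, a difference of 1 peak moves a share by several percentage points, and no difference in class from the list is claimed. The median score was 9.06 for the 4 member promoter peaks, 6.87 for the other 12 and 6.57 for all 2433 peaks in the promoter window. The focus ratio had a median of 0.678 for the member peaks, with a range of 0.52 to 0.819, and of 0.684 for all peaks.

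An NFI full site was found in 8 of the 16 member peaks, beside 51.8% of all peaks. Among promoter peaks it was present in 3 of 4 members and in 37.7% of all peaks in that window. The single site was found in 8 member peaks (33.6% of all peaks), of which 4 had no full site, and 4 member peaks had neither. By role, the full site was found in 1 of 6 sensor peaks, 5 of 7 peaks of transcription factors and 2 of 3 peaks of target genes. The site lay within 50 bp of the peak centre in 4 of the 8 member peaks that had it, and in 81.7% of all peaks that had it. At *Ern1*, *Ddit3*, *Atf3* and the *Chac1* peak at 4137 bp the full site lay farther out.

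The letters bound by the factors of the UPR itself were searched in the same windows on both strands. The ER stress response element, CCAAT and CCACG with 9 bases between them, was in 0 member peaks and in 0.00632% of all peaks, and the XBP1 element TGACGTGG was in 0 and in 0.455%. The cyclic AMP response element TGACGTCA was in 0 member peaks and in 0.543% of all peaks. The CARE, which ATF4 binds with C/EBP partners, was in 3 member peaks, those of *Ddit3*, the *Chac1* promoter and *Xbp1* at -21055 bp, and in 1.79% of all peaks. CCAAT boxes were in 6 member peaks and 24.7% of all peaks. A CCAAT box can overlap an NFI single site (in ATTGGCA), as it does at *Ern1* and at the middle *Xbp1* peak. GC boxes were in 2 member peaks and 21.1% of all peaks. A match is a match of letters only and is not evidence that the factor is bound.

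In the RefSeq promoters, from 250 bases before to 50 after a start, sequences were found for 9 of the 10 members, all but *Atf6*. The NFI full site was in those of *Atf3*, *Chac1* and *Ddit3*, and in 15.3% of all 32851 promoters. These 3 genes also have an NFIC promoter peak. Of the full sites within those promoter sequences, that of *Chac1* lies inside the peak, whereas those of *Atf3*, from -223 to -211 bp and from 26 to 38 bp, and that of *Ddit3*, from -212 to -200 bp, lie outside it. The CARE was in the promoters of *Atf3*, *Chac1* and *Trib3* (3.97% of all), and the cyclic AMP response element was in that of *Ppp1r15a*, from -12 to -5 bp (1.79% of all). The ER stress response element and the XBP1 element were in none of the 9, and in 0.119% and 0.676% of all promoters. The other 6 held neither an NFI full site nor a single site in this stretch, namely *Ern1*, *Xbp1*, *Eif2ak3*, *Trib3* and *Ppp1r15a*, which had no promoter peak, and *Atf4*, which had one.

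The other genes of the pathway were taken as a list of 46 in 5 groups. A peak was named for 34 of them (73.9%) and a promoter peak for 11 (23.9%), beside 37.2% and 10.7% of all protein-coding genes. By span, 12 of 16 under 10 kb, 19 of 27 from 10 to 100 kb and 3 of 3 over 100 kb had a peak. The list and its groups were chosen with results of these data known, and the shares are given as a description.

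Beside 37.2% and 10.7% of all protein-coding genes, targets of ATF4 and CHOP had a peak in 8 of 10 cases and a promoter peak in 4. These were *Asns*, the asparagine synthetase (score 9.76 at -86 bp), *Ddit4*, an inhibitor of mTORC1 (14.7 at -284 bp), *Psat1*, an enzyme of serine synthesis (12.7 at -786 bp), and *Ero1l*, an ER oxidase (5.98 at -95 bp). *Sesn2* and *Stc2* had none. *Bcl2l11*, which encodes the BH3-only protein BIM, had a distal peak with a score of 19.9 at 44824 bp. Targets of ATF6 and XBP1 also had a peak in 8 of 10 cases. A promoter peak was named for 2 of them (20%), beside the same 10.7% of all protein-coding genes. They were the co-chaperone gene *Dnajb9* (7.77 at -67 bp) and *Sdf2l1* (4.38 at -60 bp). With 10 genes in each group, no difference between the 2 groups is claimed. *Hspa5*, encoding the main ER chaperone BiP, had a single low peak, with a score of 3.98 at 11357 bp, and *Hsp90b1* and *Syvn1* had none. *Hspa5* spans 4440 bp, so that its peak, of the intron class, lies past the end of the gene. By ChIP-qPCR, a measure other than this list, the paper reported NFIC binding at the promoters of *Hspa5*, *Ddit3* and *Hsp90aa1*. Of these, *Ddit3* has a promoter peak in the list, *Hspa5* has none, and *Hsp90aa1* was not among the genes taken here. The highest score of all the other UPR genes, 22.3, belonged to a peak 12005 bp past the TSS of *Creld2*, and *Herpud1* and *Edem1* had scores of 15.3 at -8650 bp and 14.7 at 42828 bp.

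Among 10 further stress transcription factors, 7 had a peak and 1 a promoter peak. This was *Nupr1*, a stress-induced chromatin protein abundant in injured pancreas, with a score of 20.5 at -128 bp. *Creb3*, *Creb3l3* and *Creb3l4*, of the family of ER-bound transcription factors, had none. Of 10 genes that process the sensors or act beside them, 7 had a peak and 3 a promoter peak, namely the IRE1-coupled kinase gene *Map3k5* (10.2 at -263 bp), *Wfs1* (5.58 at -314 bp) and *Dnajc3*, which encodes an inhibitor of PERK (9.16 at -331 bp). *Mbtps2*, *Atf6b* and *Ern2* had none. Of 6 genes of the eIF2α branch, 4 had a peak, and only the kinase gene *Eif2ak4* had a promoter peak, with a low score (3.98 at -160 bp). *Eif2ak2* and *Eif2s1*, the gene of eIF2α itself, had none. Of the 11 promoter peaks of these genes 3 held an NFI full site, those of *Nupr1*, *Asns* and *Psat1*.

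**Figure D5:**
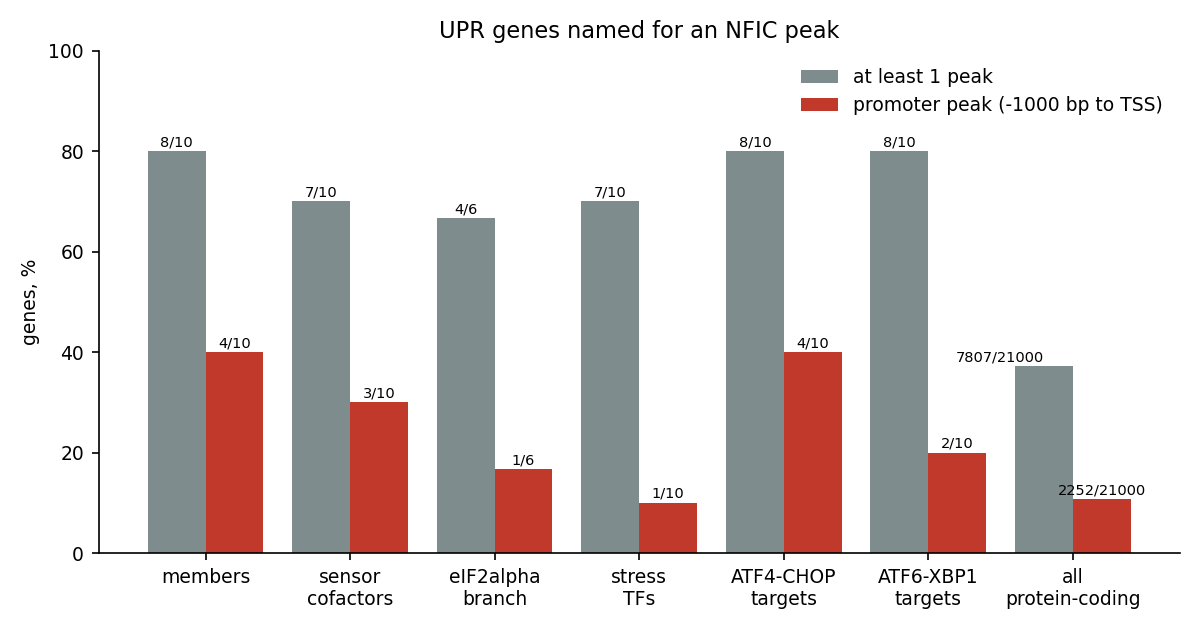
Percent of genes with at least 1 NFIC peak (grey bars) and with a promoter peak from -1000 bp to the TSS (red bars), with the counts above the bars, for the members, the 5 groups of other UPR genes and all protein-coding genes. Each group had peaks for 66.7% to 80% of its genes, beside 37.2% of all protein-coding genes, and the promoter share was 40% for the members and for the ATF4-CHOP targets and 10% for the further stress transcription factors, beside 10.7% of all protein-coding genes.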

How the data were processed

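Chromatin bound by NFIC in mouse pancreas was sequenced in 3 libraries, beside 1 of input DNA, with a mean fragment size of 350 bp, of which 120 bp were adaptors. The submitters' processing notes name BWA, Picard, MACS2 and mm10. The paper's methods name RUbioSeq+ and, for the merging of replicates and the annotation, HOMER, but in a paragraph on downloaded data. Versions and thresholds are not given in the sources used here. The peak score and the focus ratio (a fraction between 0 and 1) are used as the authors deposited them. Every peak is 173 bp wide. In which libraries a peak was present, their depth and the signal of the input DNA are not known from the list, so no normalization, interval or comparison between libraries was made.

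Peaks were counted by the authors' gene names. Sequences, gene spans and neighbouring genes came from the RefSeq copy of GRCm38.p6, in which the authors' distance was found again for all 16 member peaks, and further starts came from GENCODE. The background was 21000 protein-coding genes with a curated transcript, matched by Entrez ID. Fixed letters were looked for on either strand of 200 bp around each peak centre and in the RefSeq promoter table (250 bases before to 50 after a start, 9 of 10 members matched by symbol), a search that was tested on simulated data. All members are named, and of the other UPR genes those with a promoter peak, those without a peak and the 5 with the highest score, ties kept, while *Hspa5* was added after its values were seen. The members and lists were chosen with earlier results of these data known. As alternatives, low scores were left out, the promoter window, the motif and the rule of assignment were changed, near peaks were merged and, after the data had been seen, peaks on repeats were left out. Computations used Python 3.11.15, numpy 2.4.6, pandas 2.3.3, pyfaidx 0.9.0.4 and matplotlib 3.10.9.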

Additional observations from a re-analysis of the deposited data

How the results depend on the processing

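With only the upper 2 quartiles of score kept, 10 of the 16 member peaks remained, for 6 of the 8 members (*Atf6* and *Eif2ak3* were lost), their median score was 9.06, which the choice of high scores fixes, and 7 in place of 11 of the other UPR genes had a promoter peak. *Atf3*, *Atf4*, *Ddit3* and *Chac1* kept their promoter peaks. With the promoter window from -1000 to 1000 bp, 18 of the other UPR genes had a promoter peak, and *Ern1* was the fifth member. *Ern1* also joined with a window from -5000 bp to the TSS. With no mismatch allowed in the NFI full site, 1 in place of 8 member peaks held it, beside 13.4% in place of 51.8% of all peaks. The other 24 alternative values were within 1.5 times the value reported, or equal to it for the median. Without peaks on repeats, an alternative chosen after seeing the data, 13 member peaks and 6 members were left. For the gene counts under altered rules, also that by span with 10 kb on either side, no share of all protein-coding genes by the same rule is given. These counts are therefore not set against a background. No paired analysis was possible because the merged list holds no value per library, and for the same reason no library could be left out. The depth of the libraries is unknown, so the absence of a peak at *Trib3* and *Ppp1r15a* is not evidence that NFIC was absent there. The same holds for the other genes or promoters without a peak, such as the promoter of *Hspa5*.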
